A study of Caenorhabditis elegans with 16 samples.

Results

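The Pn.p cells are the posterior daughters of the P blast cells that line the ventral side of the nematode Caenorhabditis elegans. They were taken here as the cells that the authors' deposited annotation calls Pn.p_lineage in the 4 single-cell libraries of the P lineage, which cover 3 age windows. The rule found 4314 such cells among 38254 cells of those 4 libraries and 151415 cells of all 16 libraries. The libraries were made from larvae of the first stage (L1, hermaphrodite) 11 to 14 h after hatching (1 library), 15.5 to 18.5 h (1 library) and 21 to 24 h (2 libraries, replicates 1 and 2). Every group was of strain UD381, genotype wt, and carried the array ycIs11, in which the hlh-3 promoter drives both a vab-10 actin-binding domain joined to venus and a nuclear tdTomato, with odr-1::gfp beside them. Live cells were sorted on reporter fluorescence, so each library holds cells that carried the reporter and is not a census of the animal. Counts are of unique molecular identifiers (UMIs), each of which stands for 1 captured transcript. Nothing in the labels says whether the replicates came from separate cultures, so p-values measure only the spread of these libraries about the line fitted on age.

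Each P cell divides to give an anterior daughter, Pn.a, a neuroblast that makes ventral cord neurons, and a posterior daughter, Pn.p, which is epidermal. In the hermaphrodite the central Pn.p cells, which express the Hox gene lin-39, stay unfused and become the vulval precursor cells, while the others fuse with the large hypodermal syncytium through the fusogen EFF-1. The precursors later read EGF, Wnt and Notch signals and make the vulva, and the epidermis around them secretes the collagens of each new cuticle.

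The libraries held 784, 587, 807 and 2136 Pn.p cells, in the order of age and with replicate 1 of 21 to 24 h before replicate 2, the order used for every run of 4 values. Their summed UMIs were 3434953, 1473831, 2429514 and 12206979, with a median of 3832.5, 2285, 1872 and 5021.5 UMIs per cell, so replicate 2 was the deepest library as well as the largest. Pn.p cells made up 7.02% of annotated cells in the youngest library (95% exact Clopper-Pearson interval 6.55 to 7.50), 8.16% in the next, and 11.1% and 17.0% in the oldest, with a mean of 14.0% ± 4.19 (SD, n = 2) in the last age window. The sort bears on these shares, and intervals cover counting error only. A further 547, 42, 7 and 10 cells that the annotation calls P1.p with a question mark were not included. Of 4312 Pn.p barcodes 2 occurred in more than 1 library. Ribosomal protein genes took 26.6%, 31.2%, 31.8% and 41.3% of Pn.p UMIs, and the 2 replicates differed by a chi-square of 39.3 per degree of freedom over 9121 genes.

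The class carried most markers of its name. Levels in this paragraph are unscaled CPM, the UMIs of a gene over all UMIs of the class on the usual CPM scale. The Hox gene lin-39 stood at 954, 969.6, 1021 and 758 CPM in Pn.p cells, against 83.1, 105, 128.99 and 88.9 CPM in the other epidermal cells. It did not set Pn.p cells apart from their sisters, since Pn.a cells held 913, 1197, 990.1 and 929 CPM, above Pn.p in 2 of the 4 libraries, and neurons 55.4, 747, 879.9 and 903 CPM. The forkhead gene lin-31, a regulator of vulval fates, stood at 436, 506, 649.9 and 452 CPM in Pn.p cells, against 15.5, 20.6, 10.2 and 14.4 CPM in Pn.a cells. In single cells thinned to equal depth, a lin-31 UMI was found in 35.4%, 36.9%, 39.8% and 32.5% of Pn.p cells. Glia gave 0%, 5.92%, 32.3% and 7.36%. In replicate 1 of 21 to 24 h the intervals overlapped, so lin-31 did not set Pn.p cells apart from glia in that library. The nuclear receptor gene nhr-25, which acts in epidermal cells, ranged over 51.8 to 87.2 CPM in Pn.p cells and 0.557 to 4.07 CPM in Pn.a cells. The junction genes ajm-1 and dlg-1 and the epidermal factor gene lin-26 were also higher in Pn.p than in Pn.a cells in each library. The GATA factor gene elt-1 was the exception, at 8.15 to 31.2 CPM in Pn.p cells against 98.6 to 169 CPM in neurons. Markers of seam cells summed to at most 10.3 CPM in Pn.p cells and those of intestine to at most 5.43 CPM. These levels describe classes that the authors made from expression.

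To ask which genes changed in Pn.p cells as the larva aged, the UMIs of the class were summed per library and a slope was fitted on the middle of the age window. From here on, CPM of Pn.p cells are scaled by TMM unless called unscaled, and a slope is a log2 difference over 10 h. At an adjusted p under 0.05 (edgeR quasi-likelihood, Benjamini-Hochberg over all genes), 727 of 7869 genes passed (9.24%), of which 398 rose (5.06%) and 329 fell (4.18%). Without TMM 738 passed, of which 311 rose and 427 fell, and the median slope of all genes moved to -0.26, against -0.00200 with TMM. The number of calls rests on few libraries, since the fit has 2 residual degrees of freedom. These hold the difference between the replicates of 21 to 24 h and the departure of the ages from a straight line. A gene that changed with age but off that line can thus fail to pass. No gene passed without the library of 11 to 14 h, without replicate 1 of 21 to 24 h, or with 21 to 24 h set against both younger libraries, although 900, 1622 and 1169 genes then had an unadjusted p under 0.05. Without replicate 2 of 21 to 24 h 55 genes passed, and without the library of 15.5 to 18.5 h 1349 did.

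Transcripts of the cell cycle fell. Of 19 genes of DNA replication, all tested, 14 fell and none rose, against 4.18% of all genes falling. Their median slope was -2.65, against -0.00200 over all genes. The helicase subunit gene mcm-7 stood at 222, 81.9, 18.2 and 21.9 CPM. Its slope was -3.48 ± 0.34 (SE; adjusted p = 0.0197, edgeR quasi-likelihood), and its level at 11 to 14 h was 11.1 times the mean at 21 to 24 h. Each age lay below the one before it. The gene rnr-1, which encodes a subunit of ribonucleotide reductase, the enzyme that makes DNA building blocks, stood at 601, 324, 80.0 and 97.8 CPM (adjusted p = 0.0200). The sliding clamp gene pcn-1 stood at 367, 118, 58.0 and 69.2 CPM (adjusted p = 0.0219). The members that did not pass were mcm-6, cdc-6, cdk-2, rpa-2 and orc-2, and the library of 11 to 14 h was the highest for all 19.

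Mitotic genes fell with them. Of 17 tested members of 19, 14 fell (82.4%, against 4.18% of all genes) and none rose, and the median slope was -2.60. The mitotic kinase gene cdk-1 stood at 395, 152, 32.3 and 43.5 CPM, with a slope of -3.40 ± 0.37 (SE; adjusted p = 0.0197, edgeR quasi-likelihood). The Aurora B kinase gene air-2, needed for chromosome segregation and cytokinesis, stood at 151, 47.6, 9.53 and 15.1 CPM, and its level at 11 to 14 h was 12.3 times the mean at 21 to 24 h. In both genes the youngest library was highest and the 2 oldest lowest. The tested members that did not pass were bir-1, mdf-1 and spd-1, and spd-1, which bundles microtubules of the spindle midzone, stood at 71.7, 51.5, 94.0 and 60.7 CPM with no order of age. Without the library of 11 to 14 h, replicate 1 or replicate 2 of 21 to 24 h in turn, no replication gene passed and 0, 0 and 1 mitotic genes did, while the medians ran over -1.78 to -2.75 for replication and -2.18 to -2.84 for mitosis.

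Among 7 genes of G1 control and cell cycle exit 1 fell (14.3%, against 4.18% of all genes), the cyclin D gene cyd-1. It stood at 320.3, 57.5, 15.3 and 24.7 CPM, with a slope of -3.86 ± 0.46 (SE; adjusted p = 0.0197, edgeR quasi-likelihood), and the library of 11 to 14 h was far above the rest. The CDK inhibitor gene cki-1, which holds cells in G1, stood at 732, 473, 336 and 373 CPM and did not pass (slope -1.01 ± 0.36, adjusted p = 0.130). Its relative cki-2 stood at 94.0, 97.8, 121 and 123 CPM and did not pass either (adjusted p = 0.472).

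Shares of single cells gave the same order. With each cell thinned to 1000 UMIs, so that depth is equal, a UMI of any replication gene was found in 82.5%, 48.0%, 35.2% and 28.6% of Pn.p cells, with an exact 95% interval of 79.4 to 85.3 in the youngest library. Neurons gave 42.1%, 26.0%, 18.6% and 20.03%, below Pn.p in each library. Other epidermis gave 60.3%, 57.1%, 33.3% and 28.2%, of 73, 7, 27 and 39 cells, and thus lay close to Pn.p at 21 to 24 h. Glia gave 83.7%, 92.3%, 92.7% and 91.9% and Pn.a cells at least 98.2%, both above Pn.p in each library, though the intervals of glia and Pn.p overlapped in the youngest. For cdk-1 alone the shares were 27.7%, 12.8%, 2.92% and 3.56% of Pn.p cells and 5.26%, 1.01%, 0.394% and 0.965% of neurons, while glia ranged over 26.0% to 32.3%. The median depth before thinning was 4192, 2471, 2622 and 5366 UMIs in these Pn.p cells and 1546, 1483, 1924 and 1836 UMIs in these neurons. Without thinning, 94.4%, 68.1%, 59.9% and 64.8% of the same Pn.p cells had a replication UMI, so at 21 to 24 h the order of the replicates then turned. Thinning left out 126, 70, 224 and 142 Pn.p cells.

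To ask whether cells labelled Pn.a shared this fall, the slope in Pn.p cells was tested against theirs in the same libraries, with library as a block. The Pn.a class was made from expression, and at least 98.2% of its thinned cells held a replication UMI in each library. The test thus compares Pn.p cells with cells still labelled Pn.a at each age. It cannot say whether the sister lineage as a whole kept these transcripts. The slopes differed for 752 of 7912 genes (9.5%; edgeR quasi-likelihood, Benjamini-Hochberg), of which 363 were more positive in Pn.p (4.59%) and 389 more negative (4.92%). Among replication genes 15 of 19 were more negative in Pn.p, and among mitotic genes 14 of 17 were. The median slope of the replication list was -2.65 in Pn.p and -0.14 in Pn.a, and that of the mitotic list was -2.60 in Pn.p and -0.08 in Pn.a. In CPM scaled within this joint fit, the helicase gene mcm-5 stood at 152, 39.4, 12.7 and 10.7 CPM in Pn.p cells, against 292, 216, 243 and 216 CPM in Pn.a cells. The difference of its slopes was -3.12 ± 0.29 (SE; adjusted p = 0.00533, edgeR quasi-likelihood). Pn.a cells stayed above 200 CPM in each library, and Pn.p cells lay below them in each. In unscaled CPM the replication genes summed to 3495, 1206, 589 and 506 in Pn.p cells and to 7299, 5808, 6814 and 6450.4 in Pn.a cells.

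The inhibitor gene cki-1 also differed in slope (-1.45 ± 0.34, SE; adjusted p = 0.0330, edgeR quasi-likelihood). It stood at 812, 486, 333 and 323 unscaled CPM in Pn.p cells, against 194, 297, 268 and 377 unscaled CPM in Pn.a cells. Pn.p was the higher class in the 3 libraries other than replicate 2 of 21 to 24 h. Pn.a cells numbered 2084, 652, 105 and 319, and 101 slope differences passed without the library of 11 to 14 h and 466 without replicate 1 of 21 to 24 h.

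**Figure D1:**
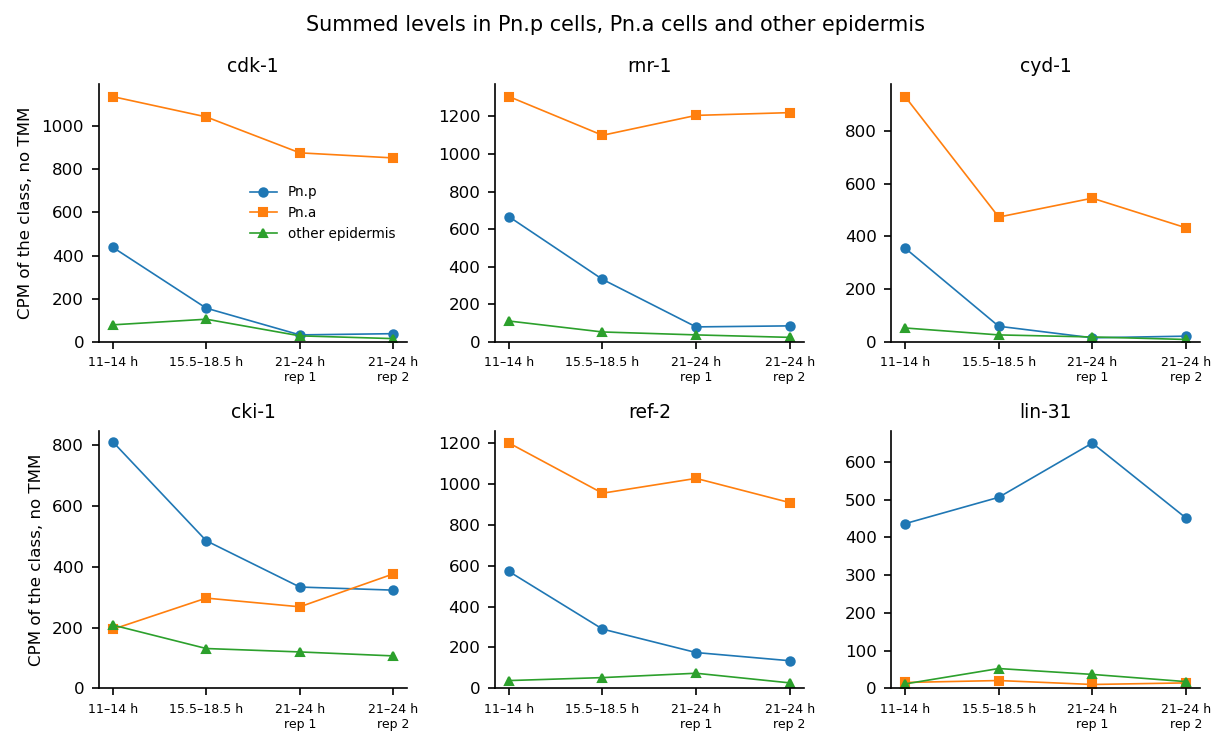
Levels of 6 genes in Pn.p cells, Pn.a cells and other epidermal cells in the 4 libraries in order of age, as unscaled CPM of each class. The cell cycle genes cdk-1, rnr-1 and cyd-1 are lower in the Pn.p cells of 21 to 24 h than in those of 11 to 14 h, while Pn.a cells stay at or above 433 CPM for all 3, and lin-31 stays at or above 436 CPM in Pn.p cells.

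Among the Hox genes, which set the fates of cells by their position along the body, ceh-13 fell and lin-39 did not pass. Of 6 tested Hox genes and cofactors 1 fell (16.7%, against 4.18% of all genes). The slope of lin-39 was 0.13 ± 0.39 (SE; adjusted p = 0.863, edgeR quasi-likelihood), with 860.0, 944, 1028 and 873 CPM, and its sign turned without TMM. The replicates of 21 to 24 h lay further apart than the 2 younger libraries did. The labial-type gene ceh-13 stood at 304, 154, 103.6 and 86.001 CPM, with a slope of -1.64 ± 0.34 (SE; adjusted p = 0.0394, edgeR quasi-likelihood). Its call was lost without the library of 11 to 14 h (adjusted p = 0.546), without replicate 1 of 21 to 24 h (adjusted p = 0.128) and without replicate 2 (adjusted p = 0.237). The gene mab-5, which patterns posterior cells, stood at 48.6, 106, 99.0 and 94.7 CPM and did not pass (adjusted p = 0.314), with the youngest library lowest. The Abdominal-B type gene egl-5 stood at 2.63, 10.6, 12.4 and 24.1 CPM and did not pass (adjusted p = 0.0746).

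In cells thinned to 1000 UMIs, lin-39 was found in 50.0%, 47.8%, 54.7% and 48.6% of Pn.p cells, with an interval of 46.1 to 53.9 in the youngest library. Pn.a cells gave 40.4%, 46.2%, 48.5% and 41.0% and neurons 2.63%, 28.2%, 40.5% and 39.4%. Thus lin-39 was frequent in Pn.a cells of each library as well, and in neurons from 15.5 h on. Glia, taken as the background of free RNA for the Hox genes, gave 2.17%, 3.55%, 0% and 3.33%, at median depths before thinning of 5131, 3157, 2736 and 6743 UMIs. The 0 of 124 glial cells allow a share of cells with a UMI of up to 2.42%, counted as 3 cells of 124, or 2.93% as the upper end of the exact interval. The gene ceh-13 was found in 19.8%, 12.6%, 9.61% and 7.82% of Pn.p cells and in at most 1.78% of glia, and its share was highest in the youngest library. For mab-5 the shares were 3.80%, 8.12%, 6.17% and 6.27% of Pn.p cells, and lin-39 and mab-5 occurred together in 1.82%, 2.51%, 2.74% and 2.16%. For egl-5 the share reached 1.15% of Pn.p cells in replicate 2 of 21 to 24 h, where glia gave 0.713% and the intervals overlapped. Without thinning, lin-39 was found in 61.1%, 63.4%, 64.9% and 75.9% of all Pn.p cells.

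**Figure D2:**
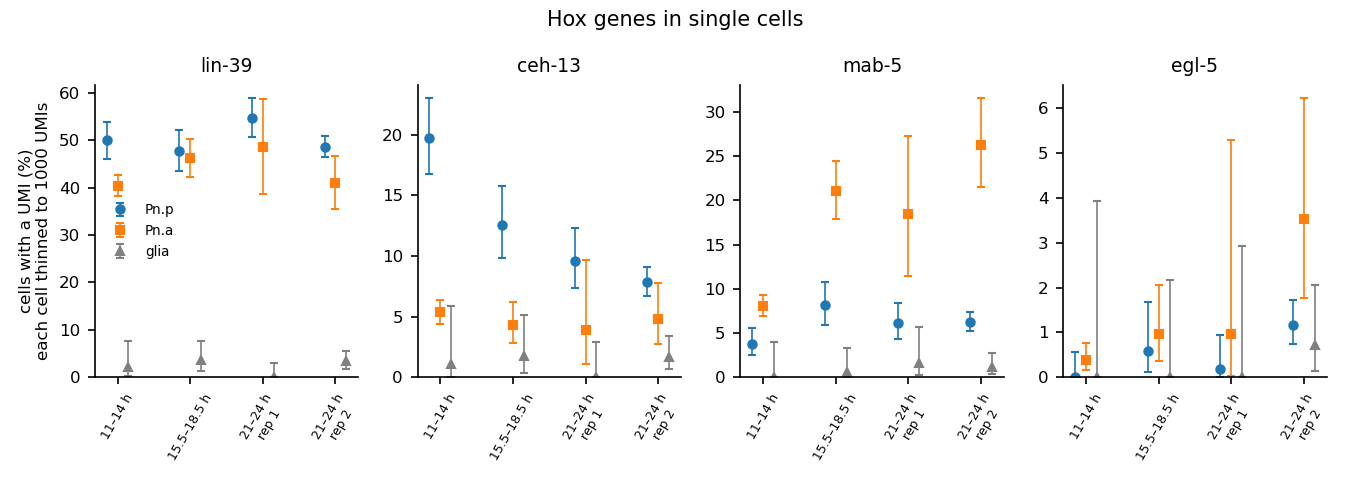
Share of cells with at least 1 UMI of each Hox gene, each cell thinned to 1000 UMIs, in Pn.p cells, Pn.a cells and glia of the 4 libraries in order of age, with exact 95% binomial intervals that cover counting error only. In Pn.p cells lin-39 stays between 47.8% and 54.7%, ceh-13 is highest at 11 to 14 h, and egl-5 is at or under 1.15%.

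Of 4 genes of cell fusion 3 were tested and 1 fell (33.3% of those tested, against 4.18% of all genes). It was ref-2, a Zic-type zinc finger gene that keeps Pn.p cells unfused in the larva, at 515, 282, 176 and 155 CPM. Its slope was -1.61 ± 0.34 (SE; adjusted p = 0.0415, edgeR quasi-likelihood), and the call was lost without the library of 11 to 14 h (adjusted p = 0.517), without replicate 1 of 21 to 24 h (adjusted p = 0.136) and without replicate 2 (adjusted p = 0.240). In unscaled CPM ref-2 stood at 571, 289.7, 175 and 135 in Pn.p cells and 1199.7, 954, 1027 and 908 in Pn.a cells, and the slopes differed by -1.11 ± 0.27 (SE; adjusted p = 0.0401, edgeR quasi-likelihood). The fusogen gene eff-1 stood at 36.8, 15.9, 7.46 and 25.4 CPM and did not pass (adjusted p = 0.385). Its replicates of 21 to 24 h lay on either side of the library of 15.5 to 18.5 h.

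Few genes of the pathways of vulval induction passed. Of 22 tested EGF and Ras pathway genes 1 fell (4.55%, near the 4.18% of all genes) and none rose. The list median was 0.21 and turned to -0.05 without TMM. The gene that fell was ark-1, a kinase gene that damps EGF receptor signalling, at 339, 130.2, 107 and 77.7 CPM (slope -1.78 ± 0.40, adjusted p = 0.0456). The receptor gene let-23 stood at 16.8, 28.4, 28.2 and 22.7 CPM and did not pass (adjusted p = 0.537). The ETS factor gene lin-1, which acts at the end of the pathway, stood at 18.1, 58.8, 52.6 and 92.1 CPM, lowest in the youngest library, and did not pass (adjusted p = 0.115). Its partner lin-31 stood at 394, 493, 654 and 520.3 CPM and did not pass (adjusted p = 0.399).

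Of 12 tested Notch pathway genes 2 fell (16.7%, against 4.18% of all genes). The ligand gene apx-1 stood at 245, 72.7, 28.6 and 35.4 CPM, with a slope of -2.85 ± 0.36 (SE; adjusted p = 0.0197, edgeR quasi-likelihood). The gene lag-1, whose protein carries the Notch signal to DNA, stood at 245, 71.4, 65.0 and 43.0 CPM (adjusted p = 0.0442). Both were highest in the youngest library. The receptor gene lin-12, which sets secondary vulval fates, stood at 249, 107, 153 and 221 CPM and did not pass (adjusted p = 0.797), with the library of 15.5 to 18.5 h lowest. Of 23 tested Wnt pathway genes 2 fell (8.70%, against the same 4.18%). The Dishevelled gene dsh-2 stood at 72.5, 17.2, 16.2 and 8.21 CPM and the beta-catenin gene sys-1 at 74.6, 30.4, 21.1 and 12.4 CPM, and both act in asymmetric divisions. The beta-catenin gene bar-1, which acts in vulval induction, stood at 78.8, 52.2, 53.9 and 53.4 CPM and did not pass (adjusted p = 0.392).

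All 19 synthetic multivulva genes, whose chromatin proteins repress vulval fates, were tested. 4 of them fell (21.1%, against 4.18% of all genes), none had a positive slope, and the list median was -0.97. The histone-binding gene lin-53 stood at 364, 118, 60.9 and 69.8 CPM (slope -2.38 ± 0.37, adjusted p = 0.0223). The retinoblastoma gene lin-35 stood at 90.8, 26.4, 24.0 and 17.2 CPM (slope -2.04 ± 0.43, adjusted p = 0.0409). The other members past the threshold were the DP gene dpl-1 (adjusted p = 0.04998) and the HP1 gene hpl-2 (adjusted p = 0.0477). Of these, lin-53, lin-35 and dpl-1 also act on cell cycle genes.

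None of 10 tested heterochronic genes, which time larval fates, passed in edgeR, where 5 had an unadjusted p under 0.05, and DESeq2 called 2. The gene lin-46 stood at 4.46, 27.8, 36.04 and 49.7 CPM (adjusted p = 0.0557), lowest in the youngest library. The gene lin-28, which holds cells in early larval fates, stood at 61.7, 61.4, 22.8 and 29.2 CPM (adjusted p = 0.0903). The Period-type gene lin-42, which cycles with the moults, stood at 216, 44.3, 149.5 and 65.5 CPM, and its replicates of 21 to 24 h lay far apart. None of 12 tested epidermal identity factors passed in edgeR, where 2 had an unadjusted p under 0.05, and DESeq2 called 0.

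**Figure D3:**
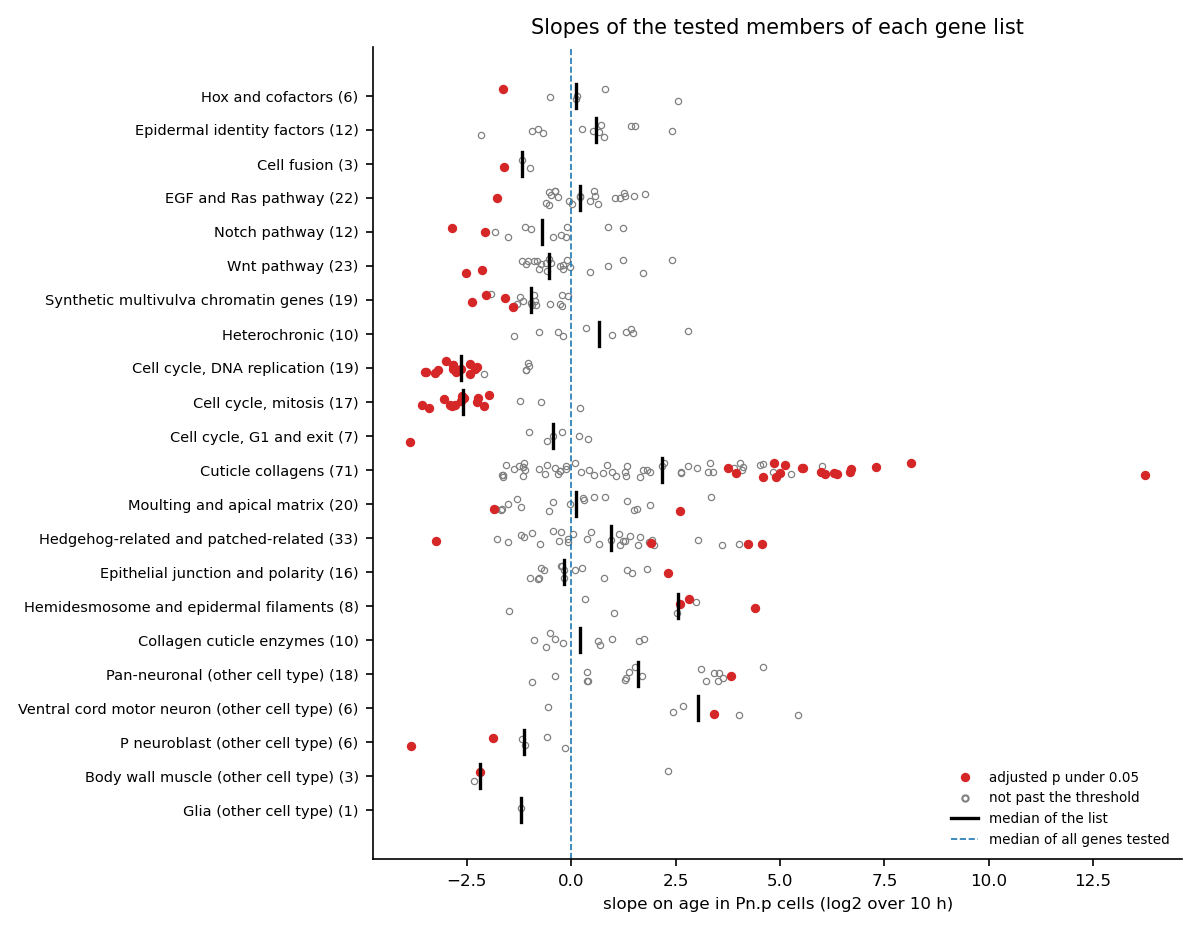
Slope on age in Pn.p cells, in log2 over 10 h, of each tested gene of the lists, with the number tested. Red points passed an adjusted p of 0.05, black bars mark the median of each list, and the dashed line marks the median of all genes tested. The replication and mitosis lists have medians of -2.65 and -2.60, and the cuticle collagens have a median of 2.18.

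Cuticle collagens were the list with the most genes that rose. Of 153 in the table, 20 had no UMI in these cells and 71 passed the filter on low counts, of which 18 rose and none fell, against 5.06% of all genes rising. The median slope of those 71 was 2.18. The filter can admit a collagen through the libraries of 21 to 24 h alone, where those that rose were high. With no filter 42 of 133 collagens rose and 1 fell, with a median of 2.25. Of all 14005 genes then tested 1261 rose and 636 fell. The gene col-3 stood at 22.6, 271, 1029 and 1632 CPM, with a slope of 5.56 ± 0.75 (SE; adjusted p = 0.0197, edgeR quasi-likelihood). Its mean at 21 to 24 h was 58.9 times the level at 11 to 14 h, and its libraries stood in the order of age. The gene col-117 stood at 5.51, 98.5, 486 and 769 CPM and col-98 at 2.1001, 9.25, 94.9 and 152 CPM. The gene col-159 stood at 0, 3.30, 46.4 and 57.6 CPM, of which the first is 0 UMIs, so its mean at 21 to 24 h was at least 66.0-fold higher than a floor of 3 UMIs in that library. With the 11 tested collagens at 0 UMIs at 11 to 14 h set to that floor, the median log2 difference between 21 to 24 h and 11 to 14 h was 2.44. The number of collagens that passed the filter changed when a library was left out. Without the library of 15.5 to 18.5 h 34 of 83 collagens rose, and without replicate 2 of 21 to 24 h 4 of 56 did. Without the library of 11 to 14 h none of 84 did, with a median of 1.05, nor any of 65 without replicate 1 of 21 to 24 h, with a median of 2.33.

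In 21 of the 71 both replicates of 21 to 24 h exceeded 2 times both younger libraries, against 5.45% of all genes. In 6 others the level at 15.5 to 18.5 h exceeded 2 times that of each other library, against 1.33% of all genes. The gene col-34 stood at 210.3, 1876, 826 and 1272 CPM and did not pass (adjusted p = 0.566), with the youngest library far below the rest. The collagen genes sqt-3, rol-8 and rol-6 had the lowest slopes of the list, and sqt-3 stood at 65.9, 70.7, 12.4 and 33.98 CPM without passing (adjusted p = 0.167). In thinned cells col-34 was found in 9.27%, 43.3%, 18.9% and 28.8% of Pn.p cells and in at most 3.47% of neurons, while glia gave 17.4%, 47.3%, 10.5% and 11.6%, with intervals that overlapped those of Pn.p in all libraries but replicate 2 of 21 to 24 h. The gene col-3 was found in 2.28%, 10.8%, 22.98% and 36.2% of Pn.p cells and in at most 0.407% of neurons, while glia gave 4.35%, 29.0%, 13.7% and 21.1%, above Pn.p beyond the intervals at 15.5 to 18.5 h. Other epidermis gave at least 89.7% for col-3.

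**Figure D4:**
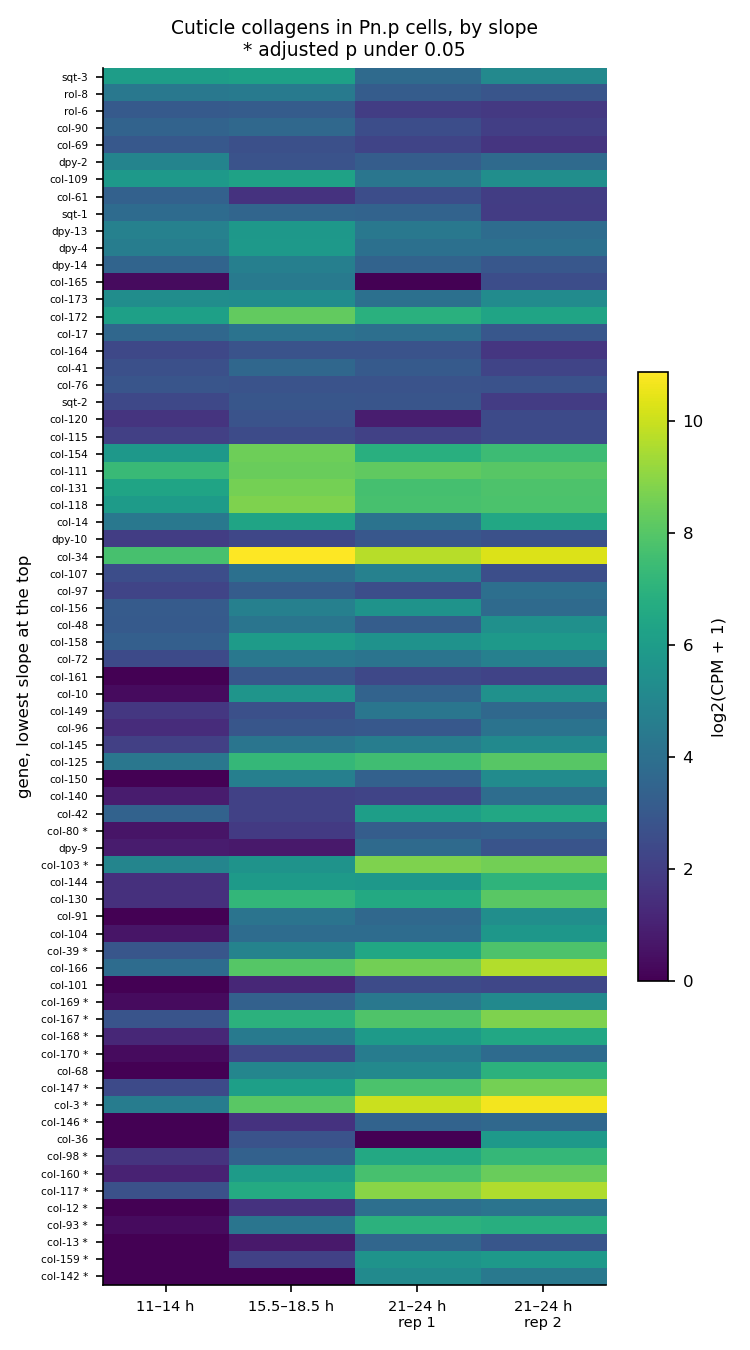
Levels of the 71 tested cuticle collagens in Pn.p cells as log2(CPM + 1), 1 gene per row and 1 library per column in order of age, sorted by slope. Stars mark the 18 that rose, which gather at the end of the highest slopes, and col-34 is highest at 15.5 to 18.5 h.

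To ask whether the rest of the epidermis shared these slopes, Pn.p cells were set against the other epidermal cells, which numbered 186, 131, 163 and 669 and carried 686186, 38165, 108532 and 337403 UMIs. In unscaled CPM the collagens summed to 1365, 6196, 6245 and 8213 in Pn.p cells, against 28389, 71059.9, 87596 and 88828 in other epidermis. In neurons they summed to 357 to 407 unscaled CPM, below Pn.p cells in each library. Glia lay above Pn.p cells. A UMI of any collagen was found in 91.3%, 98.8%, 86.3% and 93.8% of thinned glia. Thinned Pn.p cells gave 47.6%, 82.8%, 73.6% and 81.4%. The slopes differed for 172 of 7577 genes (2.27%; edgeR quasi-likelihood, Benjamini-Hochberg), of which 96 were more positive in Pn.p (1.27%) and 76 more negative (1.0%). Of 85 tested collagens 9 were more positive in Pn.p, among them col-3, col-98, col-103 and col-117, and 12 were more negative. The more negative set held the body shape collagens sqt-1, sqt-2, sqt-3, rol-6, rol-8, dpy-2, dpy-4, dpy-13 and lon-3, beside col-17, col-90 and col-118. In CPM scaled within this joint fit, sqt-3 stood at 69.1, 69.2, 13.0 and 34.7 CPM in Pn.p cells, against 87.0, 1424, 2057 and 2285 CPM in other epidermis. The difference of its slopes was -6.13 ± 1.04 (SE; adjusted p = 5.22e-06, edgeR quasi-likelihood), and the classes were close only in the youngest library. P-values of this fit rest almost wholly on a spread that edgeR shares across genes. They do not measure the spread of sqt-3 itself between the libraries.

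Cell cycle genes showed no called difference between these classes. None of 17 tested replication genes and none of 17 tested mitotic genes passed in edgeR, where 0 and 1 had an unadjusted p under 0.05. The median slopes were -2.76 and -2.60 in Pn.p cells, against -1.60 and -1.65 in other epidermis, where the filter on low counts left 7 and 3 genes of these lists. For cdk-1 the difference was -1.17 ± 1.08 (SE; adjusted p = 0.915, edgeR quasi-likelihood), an error too wide to call the slopes alike. Of 23 tested moulting and apical matrix genes 5 were more negative in Pn.p, namely mlt-8, mlt-9, noah-1, noah-2 and qua-1. The Notch receptor gene lin-12 was more negative too (adjusted p = 0.00807, edgeR quasi-likelihood), at 276, 109.9, 152 and 192 unscaled CPM in Pn.p cells and 0, 0, 36.9 and 29.6 in other epidermis. The younger libraries held 0 UMIs of it there, so the fitted difference (-10.4 ± 2.67, SE) depends on the prior count and is no bound. In Pn.p cells alone its slope was -0.24 ± 0.50 and did not pass (adjusted p = 0.797, edgeR quasi-likelihood). Without the library of 11 to 14 h 26 slope differences passed, without replicate 2 of 21 to 24 h 36, without replicate 1 86, and without the library of 15.5 to 18.5 h 408. Against the annotated class Epidermis alone, without seam and XXX cells, 83 passed, of which 67 were more positive in Pn.p and 16 more negative. Of the 172 genes above, 50 were among them. Markers of seam cells summed to 11020, 498, 157 and 5771 unscaled CPM in other epidermis, so the part of seam transcripts in that class differed between libraries.

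Genes that tie the epidermis to the cuticle and to muscle rose in part. Of 8 tested genes of hemidesmosomes and filaments 3 rose (37.5%, against 5.06% of all genes) and none fell, with a median slope of 2.57, and without TMM 2 rose and 1 fell. The attachment gene mua-3 stood at 39.6, 214, 369.5 and 337 CPM (adjusted p = 0.0480). The ankyrin-repeat gene vab-19 stood at 6.56, 24.4, 38.9 and 53.0 CPM (adjusted p = 0.0328). The intermediate filament gene ifb-1 stood at 2.36, 26.4, 45.6 and 108 CPM (adjusted p = 0.0355). In all 3 the youngest library was lowest and both replicates of 21 to 24 h were highest. The spectraplakin gene vab-10 stood at 2489.7, 999, 782 and 862 CPM and did not pass (adjusted p = 0.0822), and its reads cannot be told apart from those of the transgene. Of 16 junction and polarity genes 1 rose (6.25%, near the 5.06% of all genes), the p120 catenin gene jac-1, at 8.66, 22.5, 39.8 and 51.6 CPM. The apical junction gene ajm-1 stood at 91.6, 148, 262 and 241 CPM without passing (adjusted p = 0.0541).

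Among 20 tested genes of moulting and the apical matrix 1 rose and 1 fell, which is close to the 5.06% and 4.18% of all genes. The fibrillin-related gene fbn-1 stood at 6.30, 17.2, 56.3 and 25.5 CPM (adjusted p = 0.0480), and its call was lost without TMM (adjusted p = 0.0596). The gene mlt-8 stood at 1479, 755, 401 and 399 CPM, with a slope of -1.86 ± 0.37 (SE; adjusted p = 0.0356, edgeR quasi-likelihood). Among 33 tested hedgehog-related and patched-related genes 3 rose (9.09%) and 1 fell (3.03%), and without TMM 2 rose and 2 fell. The patched-related gene ptr-8 stood at 2.63, 8.59, 55.9 and 39.8 CPM, ptr-11 at 12.1, 29.1, 44.3 and 52.3 CPM and the ground-like gene grl-4 at 7.35, 87.2, 128 and 380.3 CPM. The ground-like gene grl-22 fell and stood at 33.3, 6.61, 2.07 and 4.06 CPM. None of 10 cuticle enzyme genes passed in edgeR, where 0 had an unadjusted p under 0.05, and DESeq2 called 0.

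**Figure D5:**
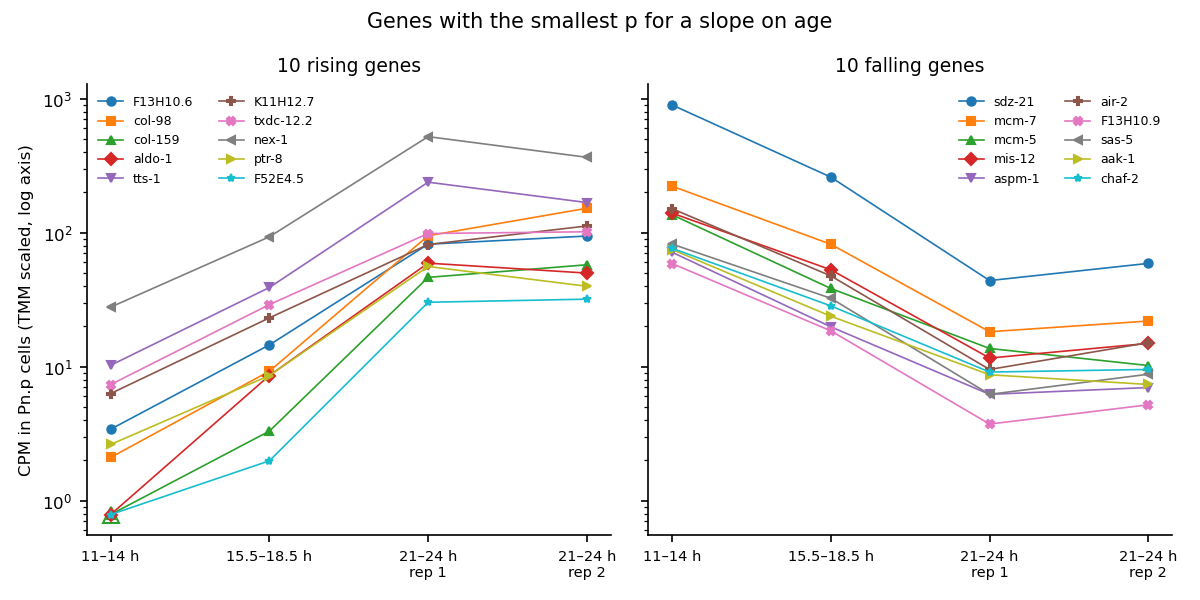
Levels in Pn.p cells, as CPM on a log axis, of the 10 rising and the 10 falling genes with the smallest p, in the 4 libraries in order of age. The open symbol marks col-159 at 0 UMIs, drawn at the level of 3 UMIs. In each of the 20 genes the library of 15.5 to 18.5 h lies between that of 11 to 14 h and both replicates of 21 to 24 h. Choice by the smallest p for a slope favours this order.

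Beyond the lists, the 10 genes with the smallest p in each direction and an absolute slope of at least 1 were named. The 10 that rose included col-98, col-159 and ptr-8. The annexin gene nex-1, whose protein binds membranes, stood at 27.8, 93.2, 521 and 365 CPM, and its mean at 21 to 24 h was 15.9 times the level at 11 to 14 h. The long non-coding RNA tts-1 stood at 10.2, 39.0, 238 and 168 CPM in Pn.p cells, and in unscaled CPM it ranged over 1138 to 7310.4 in other epidermis. The thioredoxin-domain gene txdc-12.2 stood at 7.35, 29.1, 98.6 and 102 CPM. The aldolase gene aldo-1, of glycolysis, stood at 0.788, 8.59, 59.2 and 49.9 CPM in Pn.p cells, of which the first is 3 UMIs, and at 302, 219.6, 600.2 and 593 unscaled CPM in neurons. The set was completed by F13H10.6 at 3.41, 14.5, 82.0 and 94.4 CPM, and by K11H12.7 and F52E4.5. In all 10 both replicates of 21 to 24 h stood above both younger libraries, an order that choice by the smallest p for a slope favours.

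Of the 10 that fell, mcm-7 and mcm-5 are on the replication list and air-2 is on the mitosis list. The set also held the kinetochore gene mis-12, the spindle gene aspm-1, the centriole gene sas-5 and the chromatin assembly gene chaf-2. The gene mis-12 stood at 139.9, 52.9, 11.6 and 14.9 CPM and sas-5 at 82.2, 32.4, 6.21 and 8.78 CPM. The AMP-activated kinase gene aak-1 stood at 74.8, 23.8, 8.70 and 7.36 CPM. The gene sdz-21 stood at 898, 259.7, 43.9 and 59.0 CPM, with a slope of -4.13 ± 0.38 (SE; adjusted p = 0.0197, edgeR quasi-likelihood). In unscaled CPM sdz-21 was at 0 in other epidermis and ranged over 12.2 to 45.7 in Pn.a cells. The last, F13H10.9, stood at 58.8, 18.5, 3.73 and 5.19 CPM.

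Markers of other cell types were present in the Pn.p sums. Of 18 tested pan-neuronal genes 1 rose (5.56%, near the 5.06% of all genes), the dense-core vesicle gene ida-1 at 0.788, 1.32, 8.70 and 10.3 CPM, and the list median was 1.61. The 20 listed genes, of which 17 to 20 had a UMI, summed to 450.4, 510.2, 707 and 661 unscaled CPM in Pn.p cells, against 9228 to 13614 in neurons. Of 6 tested motor neuron genes 1 rose (16.7%, against 5.06% of all genes), the transcription factor gene unc-3 at 3.68, 24.4, 31.5 and 73.2 CPM. The motor neuron list summed to 23.6, 297, 217 and 444 unscaled CPM in Pn.p cells, against 7953 to 18144 in neurons. The GABA synthesis gene unc-25 stood at 0.291, 65.1, 66.3 and 218 unscaled CPM, while in thinned cells it was found in 0%, 0.580%, 0.343% and 1.81% of Pn.p cells. Its UMIs thus came from few cells. Cells were used as annotated with no doublet caller, and the part of neuronal transcripts in the slopes was not tested.

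Of 6 tested neuroblast genes 2 fell (33.3%, against 4.18% of all genes), the proneural gene hlh-14 at 190.1, 35.02, 9.94 and 14.4 CPM and hlh-3, whose promoter drives the reporter, at 119.7, 48.9, 36.9 and 25.4 CPM. The muscle myosin gene unc-54 fell too, at 21694, 7632, 5171 and 3763 CPM (adjusted p = 0.0430), while the muscle genes myo-3 and unc-15 had at most 0.901 unscaled CPM in Pn.p cells. In unscaled CPM unc-54 stood at 24058, 7837, 5138 and 3265 in Pn.p cells and 23644, 29220.1, 29903 and 26393 in Pn.a cells. The level in Pn.p cells moved with those of hlh-3 and vab-10, and the part of the transgene in it was not tested. With unc-54, vab-10 and hlh-3 left out of the sums 717 genes passed. Glial markers summed to 93.2, 27.8, 43.2 and 21.1 unscaled CPM, and in the youngest library all of these UMIs came from ptr-10.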

How the data were processed

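UMI counts per gene and cell were made by the authors and used as deposited, and the submitters' processing notes name Cell Ranger 6.0.0. No coordinates are printed, since the build was not given in the sources used here. The matrix holds 18570 genes, and 18545 of their IDs matched the annotation used for names. Cell classes and libraries were taken from the authors' deposited annotation. The annotation's library names give hours that differ from the labelled windows for the youngest and the oldest libraries. The youngest was paired by elimination, as the earliest hour named, so its match is less certain. No cell filter was added, and no doublet caller was run.

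Raw UMIs of Pn.p_lineage cells were summed per library. Slopes were fitted with edgeR 4.0.16 (R 4.3.3) by its quasi-likelihood test after filterByExpr, with TMM library sizes and Benjamini-Hochberg adjustment over all genes tested (threshold 0.05). Differences in slope between classes were interaction terms with library as a block. DESeq2 1.42.0, other scalings, filters and left-out libraries were alternatives. For shares of cells, each cell was thinned to 1000 UMIs, and intervals are exact Clopper-Pearson intervals at 95% that cover counting error only. The scripts were tested on simulated data. There the test of the age slope recovered 1.49% of changes of 2-fold over 10 h, 16.2% of 4-fold and 77.8% of 8-fold. The test of the difference from other epidermis recovered 0% at each of these sizes. The test of the difference from Pn.a recovered 11.6%, 58.6% and 87.1%. A gene that did not pass may thus still have changed. Genes were named by p among those past the threshold, 10 a direction for the slope (absolute slope at least 1) and 5 a direction for each difference in slope. Members and gene lists were chosen with earlier results of these data known. Alternatives without TMM, without unc-54, vab-10 and hlh-3, and with the class Epidermis alone were chosen after seeing the data.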

Additional observations from a re-analysis of the deposited data

Results flagged for a closer look

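The slope on age differed between Pn.p cells and other epidermis by a test of the difference itself (edgeR quasi-likelihood) in 10 named genes. In log2 over 10 h, Pn.p minus other epidermis was 8.80 ± 1.23 (SE) for T25G12.3, 7.39 ± 1.32 for F59E11.7, 6.21 ± 1.07 for grl-4, 5.92 ± 1.07 for tank-1 and 5.84 ± 1.06 for col-98. It was -9.34 ± 1.42 for lon-3, -7.37 ± 1.33 for spp-13, -6.81 ± 1.11 for F33D4.6, -6.78 ± 1.14 for Y54G2A.76 and -6.13 ± 1.04 for sqt-3. In CPM of the joint fit, grl-4 stood at 7.71, 85.4, 133 and 388 in Pn.p cells and 297, 165, 128.5 and 74.6 in other epidermis, so the classes ran in opposite directions. In the same fit lon-3 stood at 3.03, 0.647, 0 and 0.193 CPM in Pn.p cells and 17.1, 124, 163 and 833 CPM in other epidermis. F59E11.7, at 0 CPM in Pn.p cells of 11 to 14 h, and lon-3 and Y54G2A.76, at 0 CPM in Pn.p cells of replicate 1 of 21 to 24 h, have fitted differences that depend on the prior count and are no bound. Of the 10, only sqt-3 still passed without the library of 11 to 14 h.

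The slope also differed between Pn.p and Pn.a cells by the same kind of test. Pn.p minus Pn.a was 11.21 ± 0.88 for ttr-15, 7.12 ± 0.49 for F32A5.9, 5.91 ± 0.53 for B0205.13, 5.32 ± 0.35 for F46F2.3 and 3.52 ± 0.32 for T28F4.5. It was -3.12 ± 0.29 for mcm-5, -3.06 ± 0.32 for dut-1, -3.06 ± 0.30 for mcm-7, -2.77 ± 0.29 for mcm-3 and -2.60 ± 0.28 for rfc-4, of which mcm-5, mcm-7 and mcm-3 are on the replication list. In CPM of the joint fit, T28F4.5 stood at 519, 594, 1097 and 1031 in Pn.p cells and 745, 419.8, 177 and 161 in Pn.a cells. The gene dut-1, whose enzyme keeps uracil out of DNA, stood at 128, 27.9, 10.8 and 11.5 CPM in Pn.p cells and 264, 206, 271 and 216 CPM in Pn.a cells. The values for ttr-15, at 4.15, 1.11, 0 and 0 CPM in Pn.a cells, and for F32A5.9, at 13.5, 11.1, 0 and 3.21 CPM there, rest in part on libraries with 0 UMIs, so these fitted differences depend on the prior count and are no bound. Without the library of 11 to 14 h, ttr-15, mcm-3 and dut-1 no longer passed.

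Outside the 4 libraries, the annotation places 223 cells of the Pn.p lineage in the other 12 libraries, which were sorted for neurons, with 0 to 53 per library. These cells entered no comparison.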

How the results depend on the processing

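No paired analysis was possible because only 21 to 24 h has 2 libraries, so no replicate number is shared across ages by more than 1 pair. The count of 727 genes for the slope stayed within 1.5 times under DESeq2's size factors, no TMM, equal cell numbers, cells of at least 500 UMIs, a robust spread, and without mitochondrial and ribosomal protein genes. It was 1897 with no filter on low counts, 1317 with DESeq2's Wald test and 0 with 21 to 24 h against both younger libraries, and 0 to 1349 with 1 library left out. For the difference from other epidermis the count of 172 became 83 with the class Epidermis alone, and 26 to 408 with 1 library left out. For the difference from Pn.a the count of 752 became 1378 with no filter on low counts, and 101 to 1088 with 1 library left out. Among cells of at least 500 UMIs, the Pn.p share was 8.94% at 15.5 to 18.5 h and 12.8% and 19.04% in replicates 1 and 2 of 21 to 24 h. Among cells of the P lineage only it was 9.00%, 12.6% and 21.2% in the same libraries. None of the 47 called genes followed one by one turned sign. Of the 95 followed that did not pass, 29 turned sign under at least 1 alternative, 23 of them without the library of 11 to 14 h and 4 without TMM, lin-39 among them (-0.12, against 0.13). Without TMM the median of the Hox list turned to -0.13, against 0.12, and that of the EGF and Ras list to -0.05, against 0.21. Those of the moulting list (-0.13, against 0.13) and the cuticle enzyme list (-0.02, against 0.22) turned as well. Without replicate 1 of 21 to 24 h, over the genes of the main test, the Hox median turned to -0.02. That of the moulting list turned to -0.37 and that of the junction list to 0.0023. With 21 to 24 h against both younger libraries the moulting median was -0.04. Without the library of 11 to 14 h, over the genes of the main test, the median of the cell fusion list turned to 0.22, against -1.18. Those of the Notch list (0.04, against -0.71), the Wnt list (0.02, against -0.53) and the G1 list (0.28, against -0.43) turned too. So did those of the Hox list (-0.12, against 0.12), the junction list (0.39, against -0.17) and the hedgehog-related list (-0.03, against 0.94), and the 1 tested glial gene (0.60, against -1.21). All 47 called genes fell short of the threshold without the library of 11 to 14 h and with 21 to 24 h against both younger libraries. The cause of these moves was not tested. The depth of other epidermis at 15.5 to 18.5 h, 38165 UMIs in all, limits that comparison.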
